A study of Drosophila melanogaster with 9 samples.

Results

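A set of 697 replication origins of Drosophila S2 cells was also listed in another cell line, Bg3, but in none of 3 single size fractions of S2 nascent strands. They were chosen by overlap alone, from 7268 listed S2 origins. An S2 origin was taken when it was narrower than 4000 bp and lay on 2L, 2R, 3L or 3R, outside the pericentromeric ends of 2L (starts from 21 Mb) and 3L (starts from 22.5 Mb). Of the 5308 origins that these limits left, called eligible here, it had to share at least 1 bp with a Bg3 region and no base with a region of fraction 4, 5 or 6. The overlaps are measured values that the choice itself used, so membership supports nothing about the lines or the fractions.

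Replication in animals starts at many sites that the origin recognition complex has licensed before S phase, and in a given cycle a cell fires only some of them. No consensus sequence marks such sites in flies, and which are used can differ between cell types. Just after a start, the leading strands are short and still carry the RNA primer. Lambda exonuclease digests DNA that lacks this primer, so short nascent strands can be purified and sequenced, a method known as SNS-Seq. As strands grow they extend away from the start.

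All samples were purified nascent strands of Drosophila melanogaster lines grown in culture, with no genetic change or treatment named in the labels. The S2-DRSC line descends from embryos and has features of blood cells, and ML-DmBG3-c2, called Bg3, came from the larval nervous system. For each line, fragments of 0.5 to 2.5 kb from pooled gradient fractions were used in 2 biological replicates. For S2, fractions 4 (short strands), 5 (middle-sized) and 6 (long) were also sequenced separately, with 2 libraries each. The 9 samples are represented by 5 lists of regions, 1 for each line and 1 for each fraction, with positions in build dm3. The samples include 1 record per line that pools its replicates. The S2 and Bg3 lists give a signal per origin, in reads per kb of its width, called strength here. The fraction lists give positions only, so a site missing from them may still hold reads. The pooled and single-fraction lists came from separate libraries, so size of strand and library cannot be told apart. No list holds a column per replicate, so no test against the spread between cultures could be made. Values below are medians, quartiles and counts over regions, with 95% intervals (Wilson for shares, binomial order statistics for medians) that cover counting error only, since neighbouring origins are not independent.

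On the 4 arms used, the S2 list held 5444 origins and the Bg3 list 5527, while fractions 4, 5 and 6 held 2844, 4363 and 3811 regions. Strength times width, added over listed origins, came to 42.1 M in S2 and 31.6 M in Bg3. In S2 each value was a whole number of reads. In Bg3, where it could be resolved, it was a weighted mean of 2 whole numbers, given below. The 31.6 M is therefore not a count of reads and gives no depth to set beside S2. No source used here states the total depth of any library, and the reads of the lines are on different scales.

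Among the eligible S2 origins, 40.7% overlapped a Bg3 region, 46.4% overlapped no fraction region, and 13.1% did both, which gave the 697 members. Of the 2463 origins in no fraction, members were 28.3% (interval 26.6 to 30.1). Of the 2160 origins also in Bg3, they were 32.3% (30.3 to 34.3). The other eligible origins comprised 1463 in Bg3 and a fraction, 1382 in a fraction but not in Bg3, and 1766 in neither. Among eligible origins in a fraction, 51.4% (49.6 to 53.3) were in Bg3. Among those not in Bg3, 56.1% (54.4 to 57.8) were in no fraction. All these shares count overlaps that the rule used, so they are a description and support nothing further about the members.

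All strengths, widths and overlaps that follow come from the lists that chose the members, so they are descriptions. The width limit left out no site on these arms that met the rest of the rule. The widest member spanned 2715 bp, on 3L at 6206245 to 6208959. Of 136 origins of 4000 bp or more on these arms, 0 were in Bg3 and missing from all fractions, where 3 counts would be a share of 2.21%. Next in width were members on 2R at 6424439 to 6426800 (2362 bp) and on 3R at 3965190 to 3967492 (2303 bp). These 3 held 2112, 2277 and 2388 reads per kb in S2, all above the upper quartile of the members. The one on 3R lay 11940 bp from the nearest region of any fraction, whereas the others lay 1671 and 1090 bp away.

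Most members lay in the lower part of the S2 range of strength. Their S2 strength ran from 866 to 3723 reads per kb, with quartiles of 1299 and 1644 and a median of 1462 (interval 1441 to 1483). Origins in Bg3 and a fraction had a median of 1816 (1777 to 1854), and those in neither had 1411 (1397 to 1420). The member median was thus 0.805 of the first value and 1.04 times the second. Placed in the whole S2 list, the median member stood at percentile 37.8, against 68.5 for origins in Bg3 and a fraction and 31.1 for origins in neither. Strong sites were scarce among the members: 62 of 697 (8.90%) exceeded 2000 reads per kb, against 18.9% of all eligible origins. The share was 37.7% for origins in Bg3 and a fraction and 3.23% for origins in neither. Above 3000 reads per kb there were 6 members (0.861%), against 4.92% of all eligible origins. Origins in Bg3 and a fraction numbered 190 (13.0%), those in a fraction but not in Bg3 63 (4.56%), and those in neither 2 (0.113%).

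Origins in Bg3 formed a graded series by the number of fractions that held them. Median S2 strength was 1462 reads per kb for the members, 1611 (1553 to 1674) for 342 origins in 1 fraction, 1723 (1675 to 1810) for 401 in 2, and 1970 (1931 to 2025) for 720 in all 3. Width moved with it, from 554 bp (527 to 586) in the members to 659.5, 728 and 848.5 bp. The median member held 806 reads, against 1441 for origins in Bg3 and a fraction and 652.5 for origins in neither. Reads per origin are the product of strength and width, so these 3 measures are not independent.

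**Figure D1:**
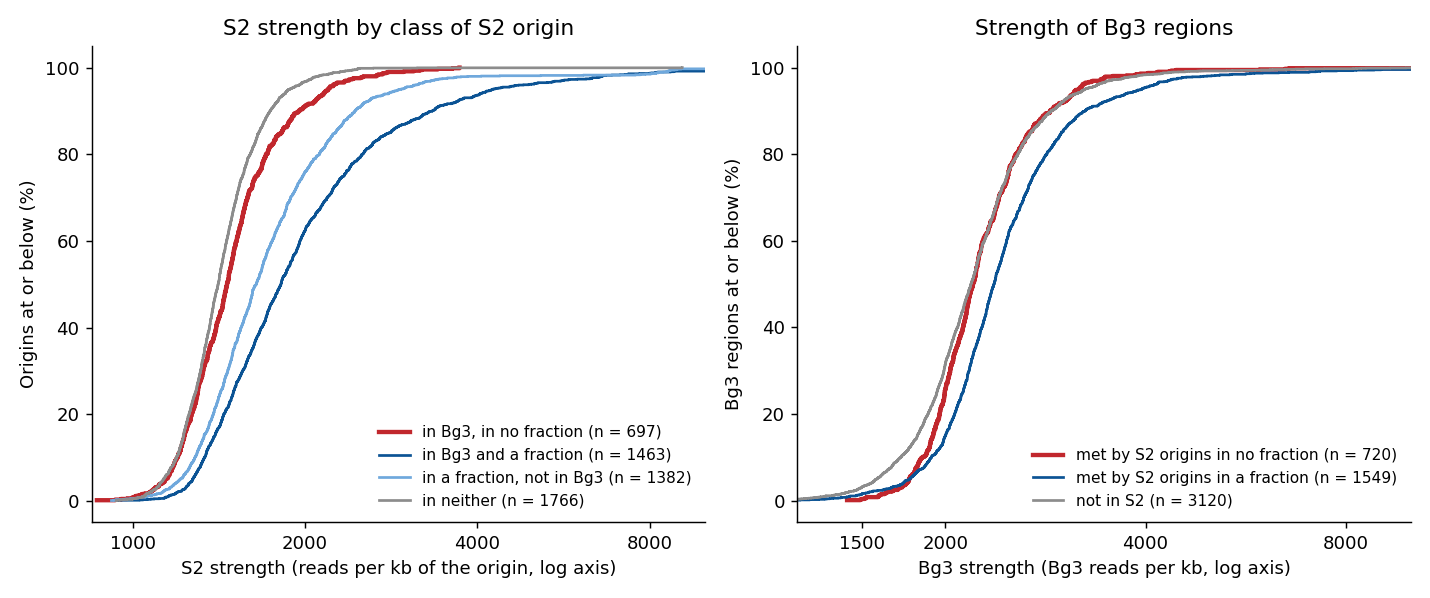
Cumulative share of origins (vertical axis, percent) by strength on a log axis. Left, S2 strength in reads per kb for the 4 classes of eligible S2 origins. Right, Bg3 strength for Bg3 regions met by members, met by S2 origins in Bg3 and a fraction, or not in S2. Members (thick red) lie between origins in neither and origins in a fraction on the left (medians 1411, 1462 and 1816 against those in Bg3 and a fraction), and on the right they follow the Bg3 regions not in S2 (medians 2202 and 2187).

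In Bg3 the same sites stood near the middle of the list. The members met 720 Bg3 regions, with quartiles of 1997 and 2485 Bg3 reads per kb and a median of 2202 (2171 to 2228). The 1549 Bg3 regions met by S2 origins in Bg3 and a fraction had a median of 2368 (2341 to 2390), and the 3120 Bg3 regions on these arms with no S2 origin had 2187 (2167 to 2207). Strength in Bg3 therefore ran at 0.930 of the first value and 1.01 times the second. The member regions stood at a median percentile of 45.4 in the Bg3 list, against 58.8 for regions of S2 origins in a fraction and 44.1 for regions not in S2. Their median width was 429 bp, against 496 and 378 bp.

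At 7958 of 8212 Bg3 origins, strength times width was the weighted mean of exactly 1 pair of whole numbers. The weights were 0.47268203 and 0.52731797. Pairs were sought only at the 7998 origins under 20000 reads. A single pair fitted 716 of the 720 regions met by members, and the strongest of the 720, on 3L at 15062734, was not among them. What the numbers stand for, separate replicates included, no source used here states. After centring on the median of all Bg3 origins, the numbers lay within 2-fold of each other at 710 of the 716 regions (99.2%), against 99.5% for regions of S2 origins in a fraction. The median strength of member regions was 2075 reads per kb by the first number and 2314 by the second, where regions of S2 origins in a fraction had 2346 and 2405.

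Between the lines, the centres of matched regions lay about as far apart at members as at origins that the fractions also held. For 637 members, 1 S2 origin met 1 Bg3 region and the reverse. Their centres lay a median of 96 bp apart (quartiles 41 and 179.5), and 330 pairs (51.8%) lay within 100 bp. The 1302 such pairs among origins in Bg3 and a fraction had a median of 98.25 bp (39 and 192.5), with 50.9% within 100 bp. Overlap was required of both sets, which caps this distance. Median widths over all members were 554 bp in S2 and 429 bp in Bg3, against 771 and 496 bp. Similar distances are thus not similar parts of the width. In 392 member pairs (61.5%) the narrower region lay wholly inside the wider, and in 24 (3.77%) under 50% of it was covered. The same shares at origins in a fraction were 68.7% and 2.15%. The S2 region was the wider in 63.3% of member pairs, with a median S2 over Bg3 width of 1.22 over all pairs, against 73.5% and 1.395 at origins in a fraction.

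At the members, relative strength was mostly higher in Bg3 than in S2, which the choice of members partly sets. Among origins in Bg3, absence from the fractions fell from 61.1% in the weakest quintile of S2 strength to 10.4% in the strongest. The rule therefore favours low S2 values, and it sets no limit on Bg3 strength. Each strength was divided by the median of its own list, since the scales differ, and the S2 value was then divided by the Bg3 value. The median of this ratio was 0.947 (0.928 to 0.962) over the 637 member pairs and 1.11 (1.08 to 1.14) over the 1302 pairs in a fraction. It exceeded 1 at 257 member pairs (40.3%) and at 820 of the others (63.0%). Both strengths were below their list medians at 266 member pairs (41.8%), against 16.2% of pairs in a fraction. Both were above at 96 (15.1%), against 46.9%. A further 168 member pairs (26.4%) were below the median in S2 and above it in Bg3, and 107 (16.8%) were the reverse. Across sites the 2 strengths had a Spearman correlation of 0.130 over the member pairs and 0.324 over the others. This is a description over regions that share 1 pooled list in each line, and the members span a narrower range of strength.

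**Figure D2:**
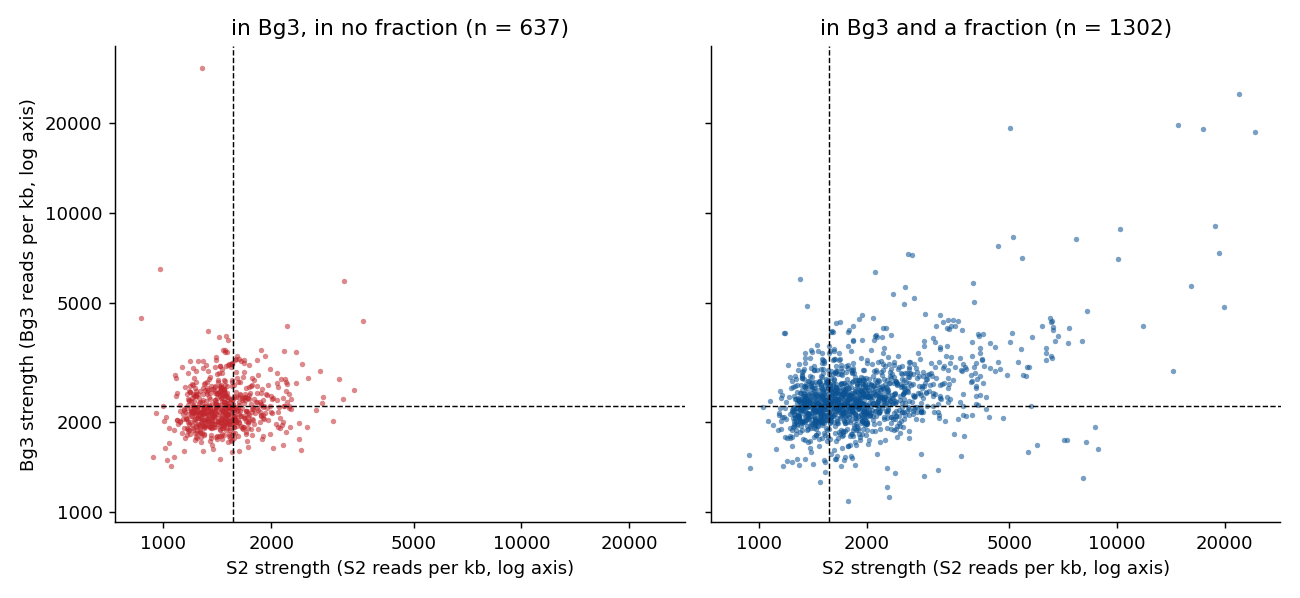
S2 strength (horizontal) and Bg3 strength (vertical), both in reads per kb of the origin on log axes, for origins matched singly in both lines. Each point is 1 origin and dashed lines are the medians of the whole lists (1566 in S2, 2254 in Bg3). Members (left) cluster at the crossing of the lines with none above 3619 reads per kb in S2, while origins in a fraction (right) extend to over 20000.

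Of the 5 members of highest S2 strength, 3 lay beside another call. The strongest, on 3L at 1380093 to 1380685, held 3723 reads per kb in S2 and 4152 in Bg3. It lay 16 bp from another S2 origin and lay 25, 25 and 22 bp from a region of fractions 4, 5 and 6. Next came an origin on 3L at 1400420 to 1401903 with 3619 reads per kb in S2 and 4342 in Bg3, 2603 bp from a fraction region. The third, on 3R at 27570917 to 27571873, had 3411 and 2544, and its nearest fraction region was 2325 bp away. The fourth was on 2R at 10784220 to 10785381, with 3202 and 5934, and had another S2 origin 31 bp away and regions of all 3 fractions within 344 bp. The last of these, on 3R at 13472349 to 13473030, had 3170 and 2386, with an S2 origin at 135 bp and a fraction 4 region at 141 bp. Over all members above 2000 reads per kb, 19 of 62 (30.6%) had an S2 neighbour within 1000 bp and 17 (27.4%) a fraction region within 1000 bp. For the remaining 635 members these shares were 17.6% and 17.5%. The median gap to the nearest fraction region was nonetheless similar, 5216.5 bp for the 62 and 5279 bp for the 635.

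Members with the strongest Bg3 regions were a mixed group. The strongest Bg3 region met by a member lay on 3L at 15062734 to 15063863 and held 30660 Bg3 reads per kb, percentile 99.5 of its list. The S2 origin inside it, at 15063337 to 15063788, had only 1281 reads per kb, percentile 14.7 of the S2 list, and lay 12316 bp from any fraction region. At 2R, 18731871 to 18732517, the values were 6479 in Bg3 and 978 in S2, and the Bg3 region met a region of 1 fraction that the S2 origin missed by 540 bp. At 3L, 5451211 to 5452265, they were 6569 and 2686, and at 2R, 18850929 to 18851377, they were 4442 and 866, the lowest S2 strength of any member. These last 2 sat in very wide Bg3 regions of 8598 and 5234 bp that met regions of all 3 fractions. The fourth by this order was the 2R origin at 10784220 named above.

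The Bg3 regions at these sites mostly had no base in a fraction either. Of the 697 members, 667 (95.7%, interval 93.9 to 97.0) met only Bg3 regions that also had no base in common with any fraction region. The rule bars fraction bases inside the member, so this share is largely set by the choice. Of the 5527 Bg3 regions on the 4 arms, 59.6% met no fraction region, as did 81.3% of those not in S2. The other 30 members met a Bg3 region that reached into a fraction region. The 28 Bg3 regions concerned were wide, with a median of 2164 bp against 418 bp for the rest, and stronger, with 2823 against 2189 reads per kb. All 5 member regions of 4000 bp or more in Bg3 were among the 28. Nearly every member met a single Bg3 region (665), and 32 met 2.

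For most members the nearest fraction region was some kb away. The median gap to the nearest region of any fraction was 5279 bp (4699 to 6315), with quartiles of 1665 and 11571 bp. It was 11084 bp to fraction 4, 7716 bp to fraction 5 and 8981 bp to fraction 6, the order in which the 3 lists grow longer being 4, 6, 5. A fraction region lay within 100 bp of 27 members (3.87%), within 500 bp of 81 (11.6%) and within 1000 bp of 128 (18.4%). At 215 members it was over 10000 bp away. Origins in neither list were slightly farther off, with a median of 6611 bp (6011 to 7138), and 2.60%, 9.91% and 14.7% of them lay within the same distances. Of the 81 near members, 44 were near 1 fraction, 22 near 2 and 15 near all 3, and 43 had another S2 origin within 1000 bp. Their median strength, 1497 reads per kb, was close to the 1459 of the remaining 616. The 215 distant members had median strengths of 1462 in S2 and 2218 in Bg3, close to the values over all members.

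**Figure D3:**
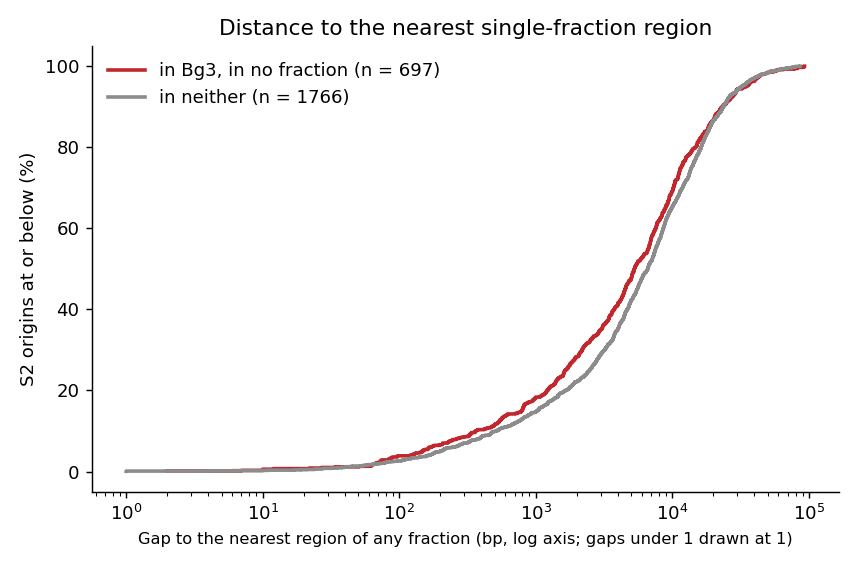
Cumulative share of S2 origins (vertical axis, percent) by the gap in bp to the nearest region of any single fraction, on a log axis. Members (red) run slightly left of origins in neither list (grey), with medians of 5279 and 6611 bp.

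Some origins sat on the limits of the rule. Just inside, members on 2L at 14663447, on 2R at 17362641 and on 2L at 822738 missed a fraction region by 2, 7 and 10 bp. Just outside, origins in Bg3 on 3R at 312518, on 2R at 19733753 and on 2R at 20260603 shared 8, 11 and 23 bp with a single fraction. On the side of Bg3, members on 2R at 16855878, on 2R at 3689606 and on 2L at 15319352 shared only 2, 3 and 6 bp with a Bg3 region. Origins in no fraction on 3R at 6259940, on 2R at 3413578 and on 2L at 19430620 missed one by 2, 3 and 14 bp. All 12 had S2 strengths between 1154 and 1709 reads per kb.

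At the other extreme stood members far from every fraction region. The most remote lay on 3L at 10518973 to 10519796. It held 2792 reads per kb in S2, percentile 89.9, and 2411 in Bg3, and the nearest regions of fractions 4, 5 and 6 were 93148, 93160 and 93159 bp away. Its nearest S2 neighbour was 70075 bp away. The next, on 2L at 3831437 to 3831827 and at 3874169 to 3874563, had 1486 and 1210 reads per kb in S2 and 2728 and 1909 in Bg3. They lay 91468 and 82990 bp from the nearest fraction region.

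Stronger and wider S2 origins were less often missing from the fractions, and at each level the share missing was lower for origins found in Bg3 than for the others. Among origins in Bg3, 61.1% of the weakest quintile (324 origins) were in no fraction, then 44.3%, 43.9% and 24.1%, and 10.4% of the strongest (643 origins). Among origins not in Bg3 the shares were 74.8%, 70.1%, 58.2%, 41.9% and 15.5%. Both overlaps are those the rule used, so the shares are a description. By quintiles of width the shares were 56.2%, 46.9%, 33.8%, 29.2% and 16.1% for origins in Bg3, and 76.9%, 64.2%, 53.0%, 38.5% and 30.8% for the others. Of 375 origins in Bg3 in the top quintile of both strength and width, 28 (7.47%, interval 5.22 to 10.6) were missing from all fractions, against 19 of 170 (11.2%, 7.27 to 16.8) not in Bg3. In the bottom quintile of both, 65 of 89 (73.0%, 63.0 to 81.2) and 300 of 369 (81.3%, 77.0 to 84.9) were, and the intervals overlapped in both sets. Read the other way, members made up 18.6% of the weakest and 6.31% of the strongest quintile of eligible origins.

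**Figure D4:**
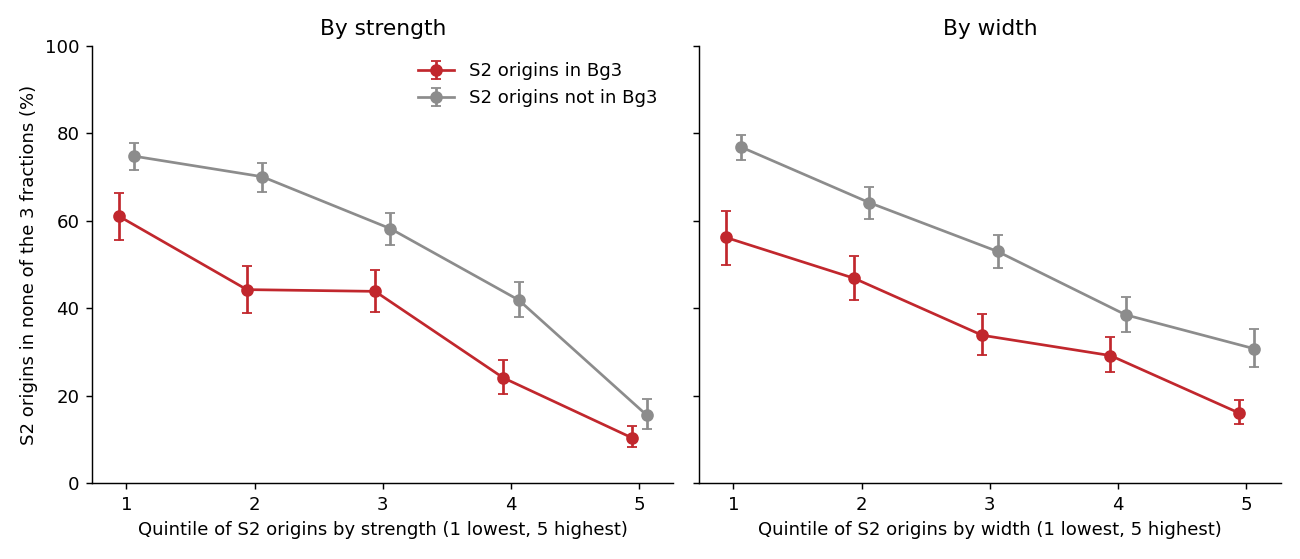
Share of eligible S2 origins in none of the 3 fractions (vertical axis, percent) by quintile of S2 strength (left) and of width (right). Red gives all origins in Bg3, where the share plotted is that of the members, and grey gives origins not in Bg3. Bars are 95% Wilson intervals. Both lines fall from quintile 1 to quintile 5, from 61.1% to 10.4% and from 74.8% to 15.5% by strength, and red lies below grey throughout.

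The members were spread over all arms but were most frequent on 3L. There were 144 on 2L, 165 on 2R, 205 on 3L and 183 on 3R, or 6.86, 7.80, 9.11 and 6.56 per Mb. As a share of eligible origins this was 11.1% (9.54 to 13.0) on 2L, 12.9% (11.2 to 14.8) on 2R, 17.8% (15.7 to 20.1) on 3L and 11.6% (10.1 to 13.2) on 3R. On 3L the share of Bg3-found origins that the fractions lacked was 40.8%, against 28.0% to 31.0% on the other arms. Over all eligible origins, those in no fraction were 601 of 1152 on 3L, 601 of 1293 on 2L, 534 of 1281 on 2R and 727 of 1582 on 3R. Fraction regions were sparsest on 3L, at 91.8 per Mb over the 3 lists, against 118 to 138 on the other arms. Eligible S2 origins were also sparsest there, at 51.2 per Mb against 56.7 to 61.6. Bg3 regions were at 66.3 per Mb on 3L, between the 69.2 of 2R and the 54.2 and 51.3 of 2L and 3R. The part of these densities in the count on 3L was not tested. Median S2 strength of members was 1461 or 1462 reads per kb on every arm, and median width ran from 544 to 596.5 bp.

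**Figure D5:**
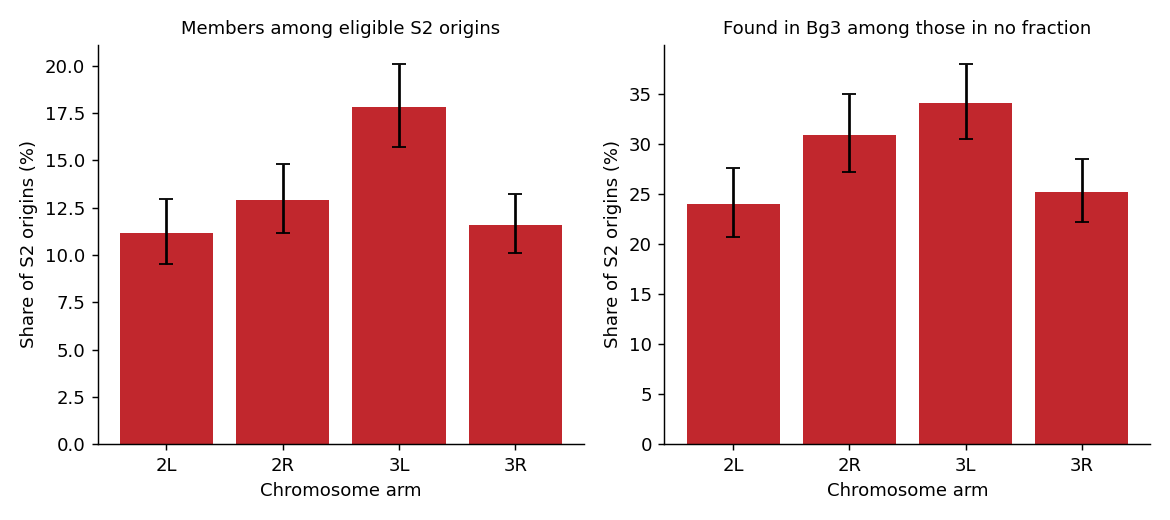
Members as a share of eligible S2 origins (left, percent) and as a share of eligible origins in no fraction (right, percent), by chromosome arm. Bars start at 0 and error bars are 95% Wilson intervals. On 3L the values are 17.8% and 34.1%, and on 2L 11.1% and 24.0%.

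Within 3L the members were most frequent in its first 3 Mb. This stretch held 58 members among 216 eligible origins (26.9%, interval 21.4 to 33.1), against 12.5% (11.7 to 13.5) elsewhere on the 4 arms and 15.7% (13.5 to 18.2) on the rest of 3L. Of its 98 origins in no fraction, 59.2% were in Bg3, against 27.0% elsewhere. Of all eligible origins there, 66.7% were in Bg3, against 39.6% elsewhere, whether or not a fraction held them. The share in no fraction was 45.4%, against 46.4% elsewhere and 53.7% on the rest of 3L. Among origins in Bg3, 40.3% of those in the stretch were in no fraction, against 31.7% elsewhere and 40.9% on the rest of 3L. The median Bg3 region was stronger and wider in the stretch, also where it met no member. The 454 Bg3 regions there had medians of 2859 reads per kb and 912 bp, and the 5073 elsewhere had 2213 reads per kb and 399 bp. The 55 that met members had 2860 reads per kb, and the remaining 399 had 2858. S2 strength was raised less, with 1607 reads per kb for eligible origins in the stretch and 1529 elsewhere, and with 1505 and 1458 for members. The boundary at 3 Mb was chosen with the values known.

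The densest windows of 500 kb lay in the same stretch. On 3L, 16 members of 50 eligible origins fell between 1.0 and 1.5 Mb, and 12 of 29 between 2.0 and 2.5 Mb. Those windows held 87 and 72 Bg3 regions. Other windows rich in Bg3 regions differed in members. On 2R from 0 to 0.5 Mb there were 87 Bg3 regions and 9 members of 46 eligible origins. On 3L there were 86 and 9 of 45 from 0.5 to 1 Mb, and 78 and 9 of 35 from 1.5 to 2 Mb. With 71 Bg3 regions each, 3L from 2.5 to 3 Mb held 4 members of 34, and 2R from 2 to 2.5 Mb held 6 of 43. In 5 windows there were 9 members, the highest share of them on 2L from 14.5 to 15 Mb (9 of 32). Over all 186 windows the median was 3 members (quartiles 2 and 5), and 9 windows had none. Along the arms, 491 members stood alone between other S2 origins and 206 (29.6%) were in runs of 2 or more, 82 of these runs holding 2 members. The next S2 origin in order was a member for 111 members (15.9%), where members were 13.1% of eligible origins. The longest runs were on 3L, 5 members in a row at 2125479 to 2174023 and 4 at 435223 to 458126. In the first, S2 strength ran from 1261 to 1683 and Bg3 strength from 2243 to 3123 reads per kb. In the second, the lowest strengths were 1558 reads per kb in S2 and 2824 in Bg3, and each member lay at least 12495 bp from any fraction region. Among the 11 runs of 3, the most compact lay on 2L at 9915962 to 9925405.

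The next S2 origin along the arm was described as well. The nearest other S2 origin was a median of 5028 bp away (quartiles 1607 and 10512), against 4703 bp for origins in Bg3 and a fraction and 4972 bp for origins in neither. It was itself in a fraction for 379 members (54.4%), against 57.6% for origins in Bg3 and a fraction and 48.0% for those in neither. It was in Bg3 for 324 members (46.5%), against 47.6% and 34.7%. Within 1000 bp there was a second S2 origin at 131 members (18.8%), of which 63 had that neighbour in a fraction. The share was 20.8% for origins in Bg3 and a fraction, 21.6% for those in a fraction alone and 23.3% for those in neither.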

How the data were processed

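The deposited lists give positions of SNS-Seq regions in 5 tables, 1 per line or fraction. MACS 1.4.1, Bowtie2 2.2.0, SAMtools 0.1.19 and build dm3 are named in the submitters' processing notes. No source used here gives their settings or how replicates were combined. Strength is the authors' deposited signal (reads per kb). Multiplied by width it gave whole reads (within 0.001) at 100% of S2 origins. In Bg3 it gave a weighted mean of exactly 1 pair of whole numbers at 7958 of 8212 origins. Pairs were sought under 20000 reads. Overlaps, gaps (bases between regions) and medians were computed in Python 3.11.15 with pandas 2.3.3, numpy 2.4.6 and scipy 1.17.1, and were tested on simulated data. Positions are printed as deposited, and a start may be off by 1. No genome of this build was used, so genes and sequences are not analysed here. The members, comparisons and alternatives were chosen with earlier results of these data known. Named regions are the 5 members strongest in each line, the 3 widest, 3 at each limit of the rule, the 3 most remote, the longest runs and the densest windows. No test was run.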

Additional observations from a re-analysis of the deposited data

Results flagged for a closer look

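The limits on arm left out further S2 origins that were in Bg3 and in no fraction, and they are listed because no comparison above uses them. There were 3 among 43 S2 origins on chromosome 4 (6.98%), 29 among 627 S2 origins on X (4.63%), 96 among 812 on heterochromatic scaffolds (11.8%) and 35 among 342 at the pericentromeric ends of 2L and 3L (10.2%). Their median S2 strengths were, in that order, 1447, 1606, 1358 and 1548 reads per kb. The labels give no untreated control that these counts could be set against. The outlier check could not be run, since no group has 4 samples.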

How the results depend on the processing

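No ratio crossed 1 under any alternative. The count, the shares and the distance have no such direction to reverse, so they could only stay or move. All alternatives were chosen with earlier results of these data known. Of 17 alternatives, 14 kept the count of members within 1.5 times of 697. It was 1154 when absence was asked of fraction 4 alone, 1154 for fraction 6 alone, and 229 among S2 origins at or above the list's median strength. The share of no-fraction origins found in Bg3 (28.3%) was 19.2% where overlap had to cover 50% of the S2 origin, 31.2% where gaps of up to 500 bp counted as shared, 35.3% among the stronger origins and 26.4% without 3L. With fraction 4, 5 or 6 alone it was 32.0%, 30.6% and 35.1%. Median S2 strength of members over that of origins in Bg3 and a fraction (0.805) stayed below 1 in all 17. In the order above (50%, gaps, stronger, then fractions 4, 5 and 6) it was 0.836, 0.823, 0.861, 0.760, 0.819 and 0.820. It was 0.785 with no width limit, 0.820 with a limit of 2000 bp, 0.824 without 2L and 0.786 without 2R. The width ratio (0.719) was 0.809 at 50%, 0.848 among stronger origins, and 0.682 and 0.816 for fractions 4 and 6. The Bg3 strength ratio (0.930) was 0.91 at 50%, 0.948 and 0.953 for fractions 5 and 6, and 0.884 and 0.962 by the first and second number alone. The median distance of 5279 bp became 3116.5 bp at 50%, 6785 bp with gaps, 6596 bp with regions merged within 1 kb, 4647 bp among stronger origins and 4547.5 bp without 3L. To fraction 4, 5 or 6 alone it was 11182, 7600.5 and 8754 bp. The share of members whose Bg3 regions met no fraction (95.7%) was 98.0% and 97.4% for fractions 4 and 6. The cause of these changes was not tested. No paired analysis was possible because the lists pool the replicates. The fraction lists hold no counts, so a site missing from them is not shown to lack signal there.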
